A study of Rattus norvegicus with 10 samples.

Results

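miR-103 and miR-107 are 2 mature miRNAs of near-identical sequence, and they were taken as the probes whose name on the array is exactly rno-miR-103 or rno-miR-107, which gave 2 of the 237 rat miRNA probes. Both names matched a rat mature miRNA in RefSeq, where they are listed as the 3p arms of their hairpins. Their levels were measured in collateral blood vessels, small arteries that carry blood around an occluded artery and widen under the added flow. The 10 RNAs came from male rats of 1 strain (Spraque-Dawley in the labels' spelling, usually written Sprague-Dawley): 5 from shunt legs, in which the femoral artery was ligated and an arteriovenous shunt raised fluid shear stress on the collaterals, and 5 from control legs, the sham-operated opposite legs of the same animals. The RNA is from whole vessel tissue, and the labels used here give neither the age of the animals nor the time between operation and sampling. In such tissue, fewer cells of a type and less RNA per cell cannot be told apart.

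miRNAs guide the RNA-induced silencing complex to messenger RNAs, mainly through the seed, bases 2 to 8 counted from the 5′ end. miR-103 and miR-107 are processed from introns of the pantothenate kinase genes, which encode the first enzyme of coenzyme A synthesis, and are widely expressed. They are known for acting on Dicer, the enzyme that makes mature miRNAs (in human cells), on caveolin-1 and insulin sensitivity (in mouse), and on cell cycle regulators. In mouse arteries, endothelial miR-103 has been reported to act on Klf4, a transcription factor that responds to flow.

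The mature sequences are shown because they set what the 2 probes can tell apart. From RefSeq (rat build GRCr8), 5′ to 3′ and with the seed in capitals, they read as follows.
miR-103: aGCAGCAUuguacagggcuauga
miR-107: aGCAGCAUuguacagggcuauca
Of 23 bases 22 were identical, and the difference was G22C, with the miR-103 base first, position 22 counted from the 5′ end and the miR-107 base last. The seed GCAGCAU was shared by these 2 names and by no other of the 693 rat mature miRNA names in the RefSeq table. The probe sequences are not used here, so how far each probe also binds the other miRNA was not tested.

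3 hairpins carry these sequences, and they are shown because the mature miR-103 is the same from both of its genes. In the lines below the mature 3p arm is in capitals.
Mir103a1: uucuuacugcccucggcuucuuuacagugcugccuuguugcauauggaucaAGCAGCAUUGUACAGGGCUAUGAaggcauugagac
Mir103a2: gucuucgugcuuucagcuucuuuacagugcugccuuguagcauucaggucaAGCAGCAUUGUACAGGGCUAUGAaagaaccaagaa
Mir107: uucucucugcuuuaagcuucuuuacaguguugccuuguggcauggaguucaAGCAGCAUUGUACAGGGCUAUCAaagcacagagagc
Mir103a1 lies at chr10:20748474-20748559 (GRCr8, plus strand), within the bounds of Pank3. Mir103a2 lies at chr3:138963227-138963312 (plus strand), within Pank2. Mir107 lies at chr1:241750418-241750504 (minus strand), within Pank1. Each hairpin is on the strand of its host gene. Mature miR-103 can therefore come from 2 genes, which its probe cannot tell apart, while miR-107 has 1. Whether both genes of miR-103 were expressed here was not tested.

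Each RNA was read on 2 of the 10 arrays, once labelled with AF665 and once with AF546, so there were 10 readings a group. The arrays form a loop in which 4 held shunt RNA only, 4 held control RNA only and 2 held 1 RNA of each group. A reading counted as above background when at least 2 of the 3 spots of the probe exceeded the local background by 2 of its SD. Rat miRNAs above background numbered 72.5 to 102 per shunt RNA and 36.5 to 84.5 per control RNA, as means of the 2 readings, and 93 rat miRNAs above background in a share of at least 0.5 of the readings of 1 group were kept for the test. The vessel miRNAs miR-143 (smooth muscle) and miR-126 (endothelium) each exceeded background in every reading (10 shunt and 10 control), and miR-145 (smooth muscle) in 9 shunt and 8 control readings. miR-126*, the opposite arm of miR-126, was in 0 of either. Of the lists for other cell types, 4 of 4 striated muscle miRNAs, 1 of 4 leukocyte miRNAs on the array (2 more, miR-146a and miR-155, are not among its names, although it has a probe named miR-146, the older name of miR-146a, which was kept), 2 of 4 nerve miRNAs and 4 of 6 epithelial and liver miRNAs were kept, and 0 of 2 red cell miRNAs. Of the striated muscle miRNAs, miR-1 was above background in 10 shunt and 4 control readings, miR-133a in 7 and 6, miR-133b in 9 and 6, and miR-206 in 10 and 10.

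Both members were detected but dim, and both passed the filter on dim probes. miR-103 was above background in 10 of 10 shunt readings and 8 of 10 control readings. Its foreground exceeded the local background by 21.0 to 201 intensity units in shunt readings (median 84.0) and by 15.3 to 195 in control readings (median 42.5). miR-107 was above background in 9 of 10 shunt readings and 6 of 10 control readings, with an excess of 12.0 to 134 units in shunt readings (median 60) and 14.7 to 144 in control readings (median 31.3). At this brightness the offset of 50 added before taking log2 compresses differences: before the arrays were normalized, the lowest possible level was 5.64.

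miR-103 had levels of 6.93, 7.05, 7.10, 7.01 and 6.90 in shunt 1 to shunt 5, against 6.56, 6.58, 6.45, 7.33 and 6.82 in control 1 to control 5 (log2 intensity, mean of the 2 readings). All 5 shunt RNAs lay above 4 of the control RNAs and below control 4, the highest of the 10, so the groups overlapped. The means were 7.00 ± 0.084 in shunt and 6.75 ± 0.35 in control RNAs (SD, n = 5 each). The difference was 0.25 log2 (SE 0.15, 95% interval -0.076 to 0.58), a fold of 1.19, and it did not pass the limma test over the 93 kept miRNAs (adjusted p = 0.294). An exact permutation test over unpaired RNAs gave p = 0.135 (two-sided, smallest possible 0.00794). Relative to the median of the kept miRNAs in each RNA, which also read higher in shunt RNAs, the difference was 0.13.

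miR-107 had levels of 6.76, 6.80, 6.82, 6.81 and 6.52 in shunt 1 to shunt 5, against 6.30, 6.39, 6.24, 7.19 and 6.68 in control 1 to control 5. Shunt 1 to shunt 4 lay close together, shunt 5 lay below them and below control 5, and control 4 was again the highest of the 10. The means were 6.74 ± 0.13 in shunt and 6.56 ± 0.39 in control RNAs (SD, n = 5 each). The difference of 0.18 log2 (SE 0.17, 95% interval -0.19 to 0.55), a fold of 1.14, did not pass (limma adjusted p = 0.480, exact permutation p = 0.373). Relative to the median of the kept miRNAs it was 0.058. Both intervals include 0 as well as differences larger than those measured.

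**Figure D1:**
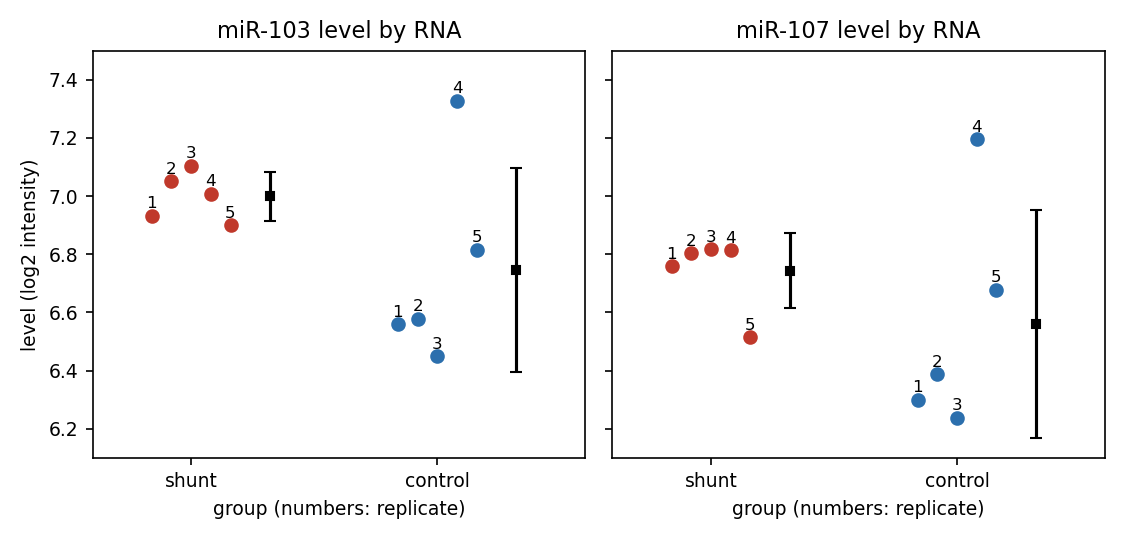
Level of miR-103 (left) and miR-107 (right) in each RNA, in log2 intensity, with shunt RNAs in red, control RNAs in blue, the replicate number above each point, and the mean ± SD of each group (n = 5) as a black square. The shunt RNAs of miR-103 lie between 6.90 and 7.10, while control 4 lies at 7.33 and the other controls between 6.45 and 6.82.

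For comparison, 1 of the 93 kept miRNAs passed the test at an adjusted p under 0.05, which is 1.08%, namely miR-21 (limma adjusted p = 0.0324), a miRNA of growing and injured vessels. Its probe exceeded background in 8 shunt readings and in 0 control readings, with measured means of 6.55 in shunt and 5.98 in control RNAs, so that it was kept only through the shunt readings and was at least 1.20-fold higher there. With the animal as a block its limma adjusted p was 0.126 and 0 of 93 passed. Neither member was among the 18 with an unadjusted limma p under 0.05 (19.4%), nor among the 16 of these that were higher in shunt RNAs (17.2%), and neither was among the 5 whose groups did not overlap (5.38%). Ranked by p, miR-103 was at place 35 and miR-107 at place 58 of 93. A difference above 0, which both members had, was found for 67 of the 93 (72%), and the median difference over all 93 was 0.12.

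Compared leg by leg, 4 of 5 rats had more miR-103 on the shunt side. The shunt minus control differences were 0.37, 0.47, 0.66, -0.32 and 0.083 log2 in animals 27, 28, 30, 31 and 32. miR-107 was higher on the shunt side in 3 of 5 rats, with differences of 0.46, 0.42, 0.58, -0.38 and -0.16 in the same order. The first 3 animals gave similar positive values for both miRNAs, and animal 31, whose control leg is control 4, gave the opposite sign for both. An exact permutation test that exchanged only the legs of an animal gave p = 0.188 for miR-103 and p = 0.375 for miR-107 (smallest possible 0.0625). With the animal as a block in limma the adjusted p was 0.339 and 0.488.

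Control 4 was high in both of its readings and in both dyes. For miR-103 it read 7.23 in AF665 and 7.43 in AF546, on arrays where control 5 read 6.71 and control 3 read 6.54. For miR-107 it read 7.19 and 7.20, against 6.53 for control 5 and 6.32 for control 3 on those arrays. The log ratio on a shared array was thus 0.52 for control 4 over control 5 and -0.89 for control 3 over control 4 for miR-103, and 0.66 and -0.88 for miR-107. Control 4 exceeded the mean of the other 4 controls by 0.73 log2 for miR-103 and by 0.79 for miR-107. Over the 93 kept miRNAs this excess had a median of 0.12, and it was smaller than that of miR-103 in 81.7% and smaller than that of miR-107 in 84.9%. Control 4 was the highest control for 41 of the 93 and the highest of all 10 RNAs for 24. In control 4 the mean level of the kept smooth muscle list was 8.12 (control range 7.36 to 8.12) and that of the striated muscle list 6.93 (6.41 to 6.93), the highest control in both. It was the lowest control for the nerve list (6.29, control range 6.29 to 6.58) and the epithelial and liver list (6.21, control range 6.21 to 6.47), and lay within the control range for endothelial miR-126 (7.72) and leukocyte miR-150 (6.68). The members of the muscle lists differed among themselves: miR-143 read 9.47 in control 4, against a control mean of 8.66, and miR-145 read 6.77, against 6.89. miR-1 read 7.41 there, against a control mean of 6.43, while miR-133a (6.31, against 6.39), miR-133b (6.44, against 6.40) and miR-206 (7.58, against 7.51) were near theirs. In the epithelial and liver list only miR-122a was clearly low in control 4 (6.49, against a control mean of 7.02). miR-200a (6.06, against 6.08), miR-200b (6.07, against 6.03) and miR-203 (6.22, against 6.23) were near theirs. In the nerve list miR-129 read 6.35, against 6.58, and miR-338 read 6.24, against 6.30. The part of these cell types in the result was not tested.

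The call on both members rests on control 4. Without it, the shunt minus control difference of miR-103 was 0.40 log2 (SE 0.091, limma adjusted p = 0.0129), with means of 7.00 ± 0.084 in shunt (SD, n = 5) and 6.60 ± 0.15 in control RNAs (SD, n = 4), and the groups did not overlap. That of miR-107 was 0.34 (SE 0.11, limma adjusted p = 0.0432), with means of 6.74 ± 0.13 in shunt (SD, n = 5) and 6.40 ± 0.19 in control RNAs (SD, n = 4), and shunt 5 still lay below control 5. Exact permutation tests gave p = 0.00794, the smallest possible, for miR-103 and p = 0.0238 for miR-107. Control 4 was the highest RNA for both members, so leaving it out favours low p-values. The p-values without control 4 are therefore no support for a difference. The same step took the number of kept miRNAs past the threshold to 25 of 93 (26.9%), of which 24 were higher in shunt RNAs (25.8%), and the groups of 18 did not overlap (19.4%), so that a call there is common. Leaving out any other 1 RNA kept the difference between 0.18 and 0.28 for miR-103 and between 0.10 and 0.24 for miR-107, with no call. With control 1 and control 3 left out together, the differences were 0.091 and -0.011. These 2 RNAs had the lowest correlations of their 2 readings over the kept miRNAs (-0.20 and -0.028). Those values are not of the levels as such, which correlated by at least 0.848 between any 2 RNAs. They do not mean that the repeat readings were unrelated.

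**Figure D2:**
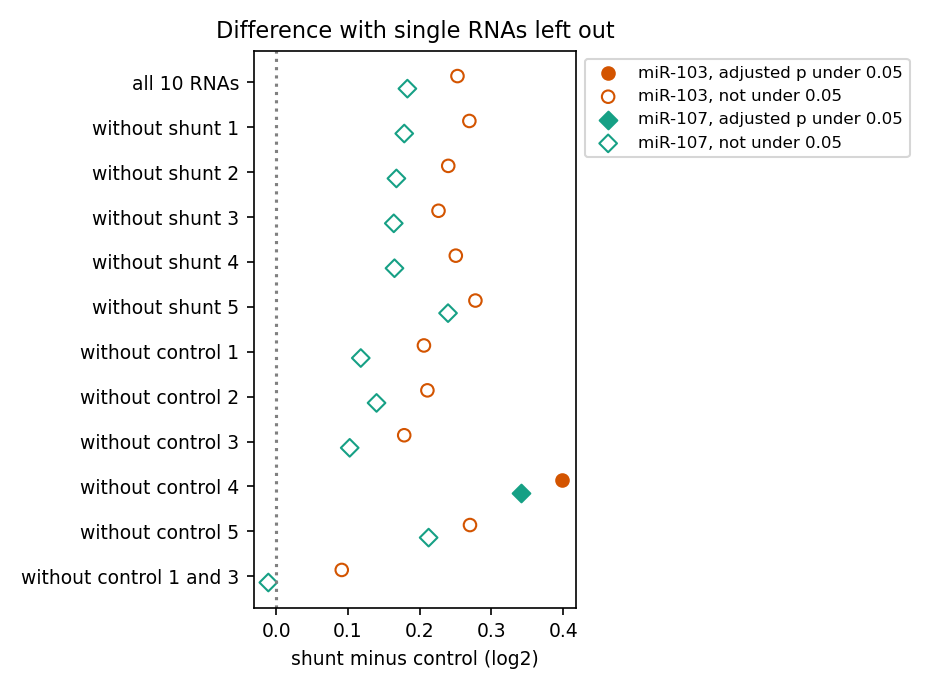
Shunt minus control difference in log2 (horizontal axis) of miR-103 (orange circles) and miR-107 (green diamonds) with all 10 RNAs, with each RNA left out in turn and with control 1 and control 3 left out together. Filled symbols mark a limma adjusted p under 0.05, reached by both only without control 4 (0.40 and 0.34).

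In the levels computed here, the spread was wider among control than among shunt RNAs. The control SD was 4.18 times the shunt SD for miR-103 and 3.05 times for miR-107. The median ratio over the 93 kept miRNAs was 1.52, a larger SD in control RNAs was found for 74 of them, and 3 had a ratio at least as high as that of miR-103, itself included. Much of this rested on control 4: without it the ratio was 1.83 for miR-103 and 1.51 for miR-107, the median over the 93 was 1.32, and 26 miRNAs had a ratio at least as high as that of miR-103. These ratios were not tested. The narrow shunt group also depended on the processing. In the authors' deposited values miR-103 ran from -0.36 to 0.90 log2 in shunt RNAs and from -0.58 to 0.76 in control RNAs. There miR-107 ran from -0.32 to 0.65 in shunt RNAs and from -0.44 to 0.78 in control RNAs.

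The repeat readings set how finely the RNAs can be ordered. AF665 read higher than AF546 in 7 of 10 RNAs for miR-103, by 0.11 log2 on average, and in 8 of 10 for miR-107, by 0.20, which the average over both dyes balances. With that dye difference removed, the SD of 1 reading within an RNA was 0.15 for miR-103 and 0.17 for miR-107, or 0.11 and 0.12 for the mean of 2 readings. That is about the SD between shunt RNAs (0.084 and 0.13) and under the SD between control RNAs (0.35 and 0.39), which was 0.15 and 0.19 without control 4. The 3 spots of a reading had a median SD of 0.15 log2 for miR-103 and 0.11 for miR-107, and the widest were those of shunt 5 in AF665 (0.81 and 0.61), where the excess over background was 21.0 and 12.0 units, the lowest among shunt readings. From low to high, miR-103 ran control 3, control 1, control 2, control 5, shunt 5, shunt 1, shunt 4, shunt 2, shunt 3, control 4. The SD of a difference of 2 such means was 0.15 for miR-103, and 2 of these 9 steps exceeded it, control 2 to control 5 (0.24) and shunt 3 to control 4 (0.22). The other steps were 0.019 to 0.11. Among the 10 pairs of shunt RNAs 2 differed by more than that SD, by at most 0.21. For miR-107 the order was control 3, control 1, control 2, shunt 5, control 5, shunt 1, shunt 2, shunt 4, shunt 3, control 4, and of its 9 steps only that from shunt 3 to control 4 (0.38) exceeded the SD of a difference, 0.17. The other steps were 0.0039 to 0.16, and 4 of the 10 pairs of shunt RNAs differed by more than that SD, by at most 0.30.

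**Figure D3:**
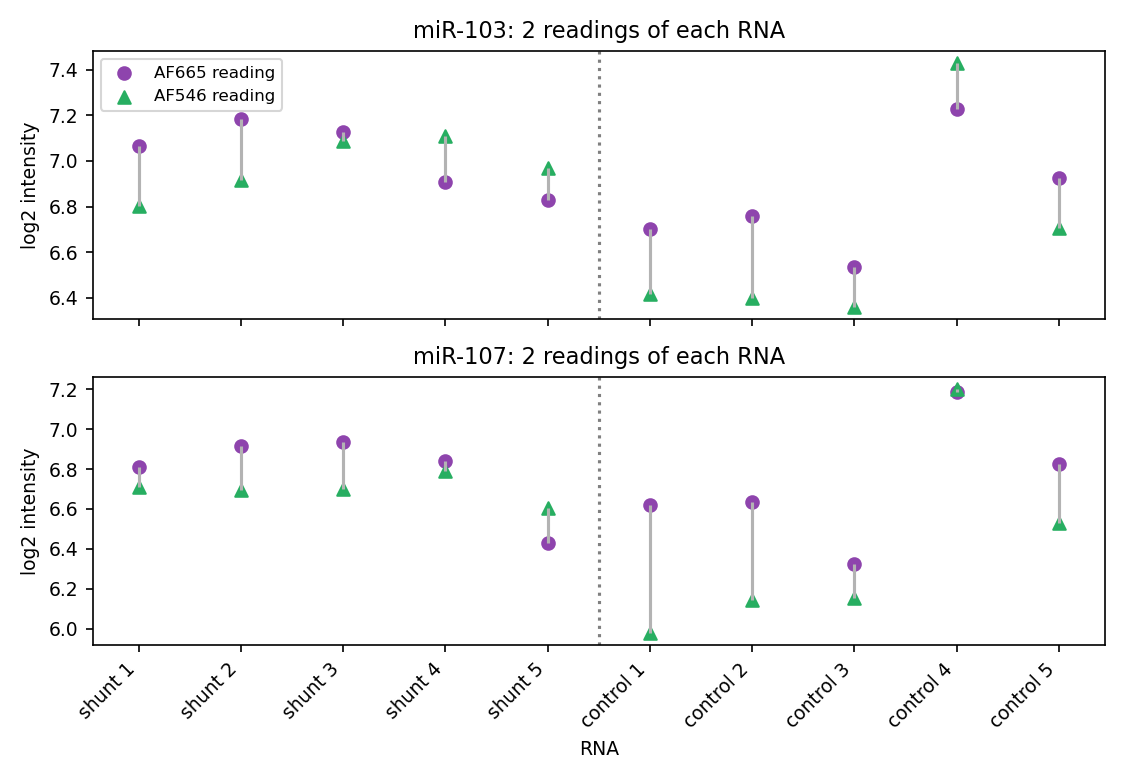
The 2 readings of each RNA for miR-103 (top) and miR-107 (bottom) in log2 intensity, AF665 as purple circles and AF546 as green triangles joined by a grey line, with shunt RNAs left of the dotted line and control RNAs right of it. Both readings of control 4 lie above those of the other controls.

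Most arrays held 1 group only, so the difference between groups was in large part measured between arrays. The 2 arrays that held both ran in opposite dye orientations. As read, shunt 1 minus control 5 was -0.12 for miR-103 and -0.12 for miR-107, and shunt 5 minus control 1 was 0.41 and 0.45. With the mean over the loop, which holds the dye difference, removed, shunt 1 minus control 5 was -0.016 for miR-103 and 0.087 for miR-107, and shunt 5 minus control 1 was 0.31 and 0.25. The means of the 2 arrays were 0.15 and 0.17 either way, with no test. Solved around the loop from the array ratios only, the difference of miR-103 was 0.14 and that of miR-107 0.28 (limma adjusted p = 0.546 and 0.264).

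The 2 miRNAs ranked the RNAs alike. Pearson's r of their levels over the 10 RNAs was 0.966 (permutation p = 2.0e-05) and Spearman's rho 0.976 (permutation p = 5.0e-05), both two-sided, with 100000 resamples and 1 relation tested. Without control 3 and control 4, the RNAs farthest from the median of miR-103, r was 0.929 (permutation p = 0.00214, 8 RNAs). Within a group 5 RNAs are too few for a correlation. RNAs next to each other in the loop share an array, so these p-values may be too small, and since the mature sequences differ by 1 base, shared levels and shared binding cannot be told apart here.

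**Figure D4:**
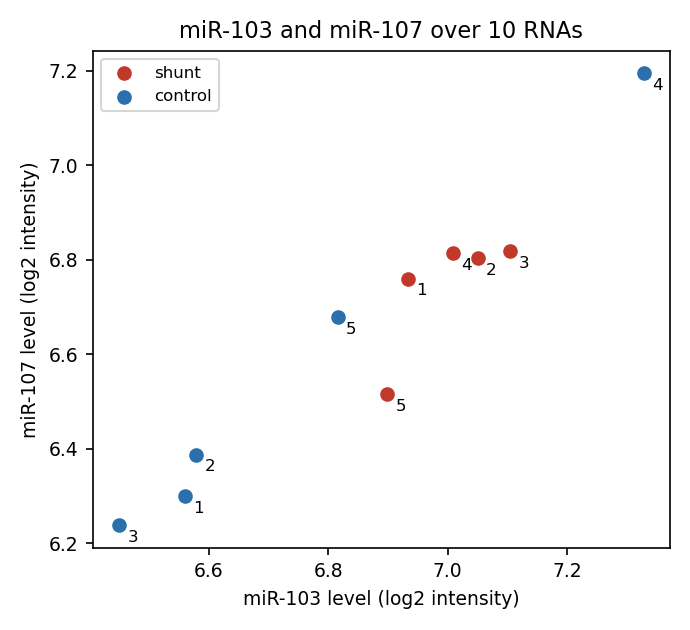
Level of miR-107 against that of miR-103 in each of the 10 RNAs, both in log2 intensity, with shunt RNAs in red, control RNAs in blue and the replicate number beside each point. The points follow a line (r = 0.966), with control 4 at its top and control 3 at its bottom.

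The change was of similar size for both. The level of miR-103 minus that of miR-107 was 0.17, 0.25, 0.29, 0.19 and 0.38 in shunt 1 to shunt 5, against 0.26, 0.19, 0.21, 0.13 and 0.14 in control 1 to control 5. The groups overlapped, with means of 0.26 ± 0.084 in shunt and 0.19 ± 0.053 in control RNAs (SD, n = 5 each). The change of miR-103 exceeded that of miR-107 by 0.070 log2, which did not pass an exact permutation test (p = 0.151 unpaired and 0.313 within animals). This value depended on the processing: it was 0.13 with no between-array normalization (exact permutation p = 0.0159) and -0.14 from ratios only (exact permutation p = 0.0317), where levels solved around the loop share the errors of the arrays. It was 0.10 without the array of shunt 5 and control 1 (exact permutation p = 0.0397). Over 33 alternatives it ran from -0.14 to 0.17, the highest in the authors' deposited values. Of these 3 passed, 1 of them with the opposite sign.

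Among the other 92 kept miRNAs, the one whose level followed miR-103 most closely was miR-107, and the reverse held. For miR-103 the next were miR-146 (r = 0.932), which is known to damp inflammatory signalling, miR-151 (0.922) and miR-20a* (0.903), the opposite arm of miR-20a, all over 10 RNAs. For miR-107 they were miR-146 (0.887), miR-151 (0.878) and let-7i (0.857), a member of a family linked to differentiation. The median r over the 92 was 0.461 with miR-103 and 0.429 with miR-107, so a positive value was common. miR-146 read 7.13, 7.30, 7.06, 7.15 and 6.87 in shunt 1 to shunt 5, against 6.55, 6.44, 6.25, 7.35 and 6.57 in control 1 to control 5. Control 4 was its highest RNA too, which the choice by correlation over the same RNAs favours. Its difference of 0.47 (SE 0.18) did not pass (limma adjusted p = 0.195) with all RNAs but did without control 4 (0.65, SE 0.10, limma adjusted p = 0.00317). So did miR-151, miR-20a* and let-7i there, with differences of 0.60, 0.63 and 0.44 (limma adjusted p = 0.0135, 0.0139 and 0.0135), in a setting where 26.9% of all kept miRNAs passed. All were picked for following the pair over the same RNAs, and the pair passes in that setting. The choice thus favours their passing too, so it cannot be read against that share. let-7i read 8.51 in control 4, against 7.27 to 7.38 in the other controls and 7.54 to 8.08 in shunt RNAs.

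miR-103 and miR-107 belong to a wider group of miRNAs that carry AGCAGC at their 5′ end, in one register or shifted by 1 base. Within bases 1 to 8 of the mature sequence this motif was found in 8 of the 693 rat mature names in RefSeq (1.15%). The related sequences are shown because the shift gives them another seed, in capitals here, than that of the pair.
miR-15b: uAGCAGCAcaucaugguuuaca
miR-16: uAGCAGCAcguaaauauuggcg
miR-195: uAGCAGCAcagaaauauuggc
miR-497: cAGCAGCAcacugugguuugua
miR-503: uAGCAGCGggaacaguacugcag
In miR-103 and miR-107 the motif starts at base 1 and the seed is GCAGCAU, while in these it starts at base 2. miR-15b, miR-16, miR-195 and miR-497 share the seed AGCAGCA and are known to restrain the cell cycle. miR-15b and miR-16 lie close together on chromosome 2, miR-195 and miR-497 on chromosome 10. Of 10 miRNAs listed for this group the array names 9, all but miR-15a, and 7 were kept. miR-503 was above background in 0 of 20 readings, and the probe named miR-322 in 0 of 10 shunt and 1 of 10 control readings.

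Of the 7 kept members 6 read higher in shunt RNAs and 1 lower, against 72% higher among all 93, with a median difference of 0.18 against 0.12. The filter can raise both counts, since some miRNAs were kept through shunt readings only, such as miR-497 (above background in 6 shunt and 3 control readings). In limma 0 of the 7 passed (1.08% of all 93), and 1 had an unadjusted p under 0.05 (19.4% of all 93). The 1 lower was the probe named miR-424, which is in the group by its name, with no sequence examined here. Without it all 6 read higher, with a median of 0.22. Without miR-103 and miR-107 the median of the other 5 was 0.042. miR-15b read 6.68, 6.81, 6.75, 6.69 and 6.46 in shunt 1 to shunt 5, against 6.41, 6.31, 6.12, 6.41 and 6.42 in control 1 to control 5. It was the 1 member whose groups did not overlap (5.38% of the kept miRNAs), with shunt 5 just above control 5, and it had a difference of 0.34 (SE 0.090, limma adjusted p = 0.0754). Its control 4 lay among the other controls, unlike that of the pair. It passed in 6 of 39 alternatives: without control 4 (limma adjusted p = 0.0186), without shunt 5 (0.0258), with no background correction (0.0491), from ratios only (0.0415), with a trend and robust prior (0.0457) and in the separate-channel model (0.00391). The separate-channel model takes each reading as a replicate, so readings of the same RNA count as independent. Its p-values may thus be too small. Levels solved from ratios only share the errors of the arrays, so the p-value from ratios only may be too small too. With the animal as a block the limma adjusted p of miR-15b was 0.247. miR-195 was also highest in control 4 (8.19), with shunt RNAs at 7.51 to 8.04 and the other controls at 7.11 to 7.39, and had a difference of 0.27 (SE 0.20, limma adjusted p = 0.363) that was 0.45 without control 4 (limma adjusted p = 0.0376) and 0.0041 from ratios only. miR-16 differed by 0.042 (SE 0.11), miR-497 by 0.011 (SE 0.077) and the probe named miR-424 by -0.15 (SE 0.092), none of which passed (limma adjusted p = 0.854, 0.967 and 0.296).

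**Figure D5:**
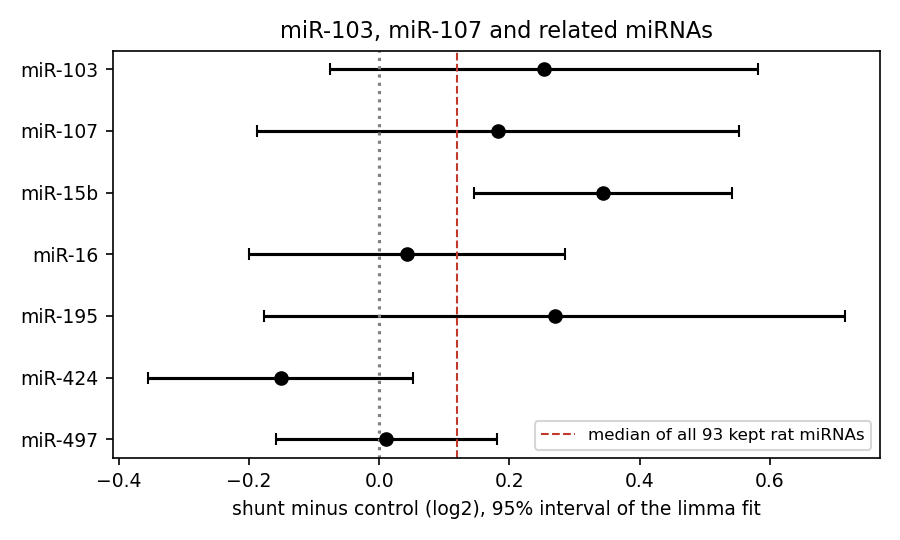
Shunt minus control difference in log2 of the 7 kept miRNAs of the group, with the 95% interval of the limma fit (n = 5 RNAs a group); the dotted line marks 0 and the dashed line the median of all 93 kept miRNAs (0.12). The intervals of miR-103 (-0.076 to 0.58) and miR-107 (-0.19 to 0.55) include 0, and that of miR-15b does not, before adjustment.

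The submitters also compared the legs of each animal on their own normalized values. For miR-103 the shunt minus control differences in the authors' deposited table were 0.50, 1.49, 0.72, -0.83 and -0.0026 log2 in animals 27, 28, 30, 31 and 32, and only the p of animal 28 (0.00447) was under 0.05. For miR-107 the authors' deposited table gave 0.48, 1.08, 0.45, -0.83 and -0.17, and again only the p of animal 28 (0.0434) was under 0.05. Each of these p-values sets 1 RNA against 1 RNA, so it does not measure variation between animals. Of these differences in the authors' deposited table, those of miR-107 had the sign given above in every animal, and those of miR-103 in all but animal 32, where the value was near 0. Over the 10 RNAs the authors' values correlated with the levels here by 0.815 for miR-103 and 0.863 for miR-107. For miR-103 shunt 2 was their highest RNA (0.90), above control 4 (0.76), and shunt 5 (-0.358) lay just below control 5 (-0.355). For miR-107 control 4 (0.78) was the highest there too.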

How the data were processed

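Per the labels, total RNA from each vessel sample was labelled directly and hybridised to 2-colour multi-species miRNA arrays. The authors deposited scanner intensity values per spot, 3 spots a probe. From these, limma 3.58.1 in R 4.3.3 (statmod 1.5.0 for block fits) computed normexp background correction (offset 50), loess within arrays (span 0.3, 4 iterations) and Aquantile between arrays. The mean of 3 spots and of the 2 readings of an RNA gave 1 log2 level. The deposited log2 value table, centred by the authors on 0 per probe and per RNA, was an alternative; the sources used here do not say how it was normalized, its base was taken from its match to the authors' folds, and its column medians are -0.123 to 0.078. The authors' deposited comparison table holds signed folds (a score) and a p-value per pair of RNAs, its test not stated; its folds run control over shunt and were turned here.

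Rat miRNAs above background in a share of at least 0.5 of the readings of 1 group were tested with lmFit and eBayes, two-sided, Benjamini-Hochberg adjusted over 93, threshold 0.05. Fits were tested on simulated data with planted changes larger than the differences of the pair and with independent noise for each RNA. That run cannot tell how well differences of the size measured here are detected. A fold against a group with no reading above background is a bound, from that group's mean of, per reading, the higher of the probe's own level and the lowest rat miRNA level above background. Spread and permutation tests without control 4, dye-removed ratios and the AGCAGC group without miR-424 were chosen after seeing the data. Legs of 1 animal share a replicate number, so an animal block was an alternative; the deviations of the legs of animals 27, 28, 30, 31 and 32 from their group means correlated by -0.418, 0.00519, -0.189, -0.0468 and 0.337. Named miRNAs are the pair, the kept miRNAs of the AGCAGC group, the 4 most correlated with each member, those past the threshold and the tissue checks. Members and lists were chosen with earlier results of these data known. Precision is limited by the number of arrays. Sequences are from RefSeq, and 7 of the 9 array names of the AGCAGC group are shown with one.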

Additional observations from a re-analysis of the deposited data

Results flagged for a closer look

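In 22 groups of 5 values, from 11 named miRNAs, 4 had 1 RNA far from the others by Dixon's criterion, which chance meets in about 5% of groups. That share is no fair baseline here, since some of these miRNAs, let-7i included, were picked for following the pair over the same RNAs. miR-107 read 6.52 log2 in shunt 5, below the other shunt RNAs (6.80 ± 0.027, SD, n = 4), a gap of 0.807 of the range. The other 3 were control 4. miR-195 read 8.19 there, above the other controls (7.27 ± 0.12, SD, n = 4), a gap of 0.740 of the range. miR-497 read 6.39, above 6.14 ± 0.035 (SD, n = 4), a gap of 0.735. let-7i read 8.51, above 7.33 ± 0.049 (SD, n = 4), a gap of 0.907. miR-103 and miR-107 themselves did not meet the criterion in control RNAs.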

How the results depend on the processing

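miR-103 read higher in shunt RNAs under all 40 alternatives (0.091 to 0.48 log2) and passed the limma threshold in 1 of 39 with a test. miR-107 ranged from -0.011 to 0.35 and passed in 1. The negative value of miR-107 and the lowest of miR-103 came with control 1 and control 3 left out together, an alternative chosen after seeing the data. The highest of both came with no between-array normalization (limma adjusted p = 0.160 and 0.259). With offset 0 the differences were 0.35 for miR-103 and 0.33 for miR-107 (limma adjusted p = 0.402 and 0.486). Leaving out 1 RNA or array gave 0.18 to 0.40 for miR-103, 0.10 to 0.34 for miR-107 and 0.10 to 0.34 for the median of the AGCAGC group, the highest without control 4, where both members passed. The change of miR-103 less that of miR-107 was 0.13 with no between-array normalization, 0.17 in the deposited value table, -0.14 from ratios only, and 0.038 to 0.10 with 1 RNA or array left out. With the animal as a replicate block the adjusted p was 0.339 for miR-103 and 0.488 for miR-107, no call of a named miRNA was gained, and that of miR-21 was lost (adjusted p = 0.126).

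Of the kept miRNAs 1 was called. The count was 0 with the replicate block, median centring within arrays, no between-array normalization, the deposited value table, AF665 readings only, a filter on all 20 channels (which neither member passed) or control 1 and control 3 left out together. It was 2 with offset 0, median foreground, quantile normalization, AF546 readings only or all probes, 3 with no background correction, ratios only, the median of spots or no filter on dim probes, 4 when centred on the kept median or with a trend and robust prior, 8 in the separate-channel model, and 0 to 25 with 1 RNA or array left out. With all 10 RNAs, 18 had an unadjusted p under 0.05.

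miR-16 turned to -0.020 with median centring and with AF665 readings only, -0.083 when centred, -0.27 from ratios only and -0.013 without control 1 and control 3 (-0.011 to 0.12 with 1 left out). miR-424 turned to 0.14 from ratios only. miR-497 turned to -0.11 with offset 0 and when centred, -0.0013 with median foreground, -0.011 with median centring, -0.0023 with quantile normalization, -0.047 in the value table, -0.023 with AF665 only and -0.036 without control 1 and control 3 (-0.023 to 0.059 with 1 left out). The cause of these changes was not tested. Low signal over background limits all of these values.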
